A study of Mus musculus with 3 samples.

Results

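Kdm1a, the mouse gene of the histone demethylase LSD1, was examined together with 9 genes of its corepressor partners: Rcor1, Rcor3, Hdac1, Hdac2, Phf21a, Hmg20b, Gse1, Gfi1 and Gfi1b. The 10 genes were chosen by name as subunits or recruiting factors of LSD1 complexes, and all of their 25 probe sets that the platform annotation pairs with a single symbol were read. The whole series covered 18193 genes on 34945 such probe sets. RNA came from bone marrow cells of mice aged 10 weeks, sorted as positive for Sca-1 and negative for lineage markers, which the study used as progenitor cells of the blood. The groups were Tg(Ly6a-KDM1A*v2 Line 6, Tg(Ly6a-KDM1A*v2 Line 3 and wild type, all on the C57BL/6J strain, with 1 Affymetrix array each. By its name the transgene joins KDM1A to the Ly6a (Sca-1) gene, so it is meant for cells that carry Sca-1. Each line is a single transgenic line, and the labels do not say how many mice stand behind an array. With 1 array per group, no difference has a replicate check, and precision is limited by the number of arrays.

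LSD1 removes methyl groups from mono- and dimethylated lysine 4 of histone H3, a mark of active promoters and enhancers. It works within the CoREST (or BHC) complex, where RCOR proteins couple it to nucleosomes and to the histone deacetylases HDAC1 and HDAC2. In blood cells the complex is brought to DNA by GFI1 and GFI1B, zinc finger repressors whose N-terminal SNAG domain imitates the histone H3 tail and binds in the LSD1 active site. Loss of LSD1 in mouse bone marrow is known to derepress stem and progenitor genes and to impair the formation of granulocytes, erythrocytes and platelets.

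Levels are the deposited intensities. Differences were taken on the log2(intensity + 16) scale, which understates those of dim probe sets, as a line less wild type or as Line 3 less Line 6, and 2 differences given together are those of Line 6 and Line 3. The brightest probe set on average stood for its gene. A gene was kept if this probe set reached the array's own median on 1 or more arrays, which was true of 10866 genes and of all 10 members. Every one of the 10 representative probe sets lay above the median on all 3 arrays. Median intensities over all probe sets were 116 in Line 6, 99.0 in Line 3 and 96.2 in wild type. The SD of Line 3 minus Line 6 over all kept genes was 0.38, the only measure here of how far 2 arrays of transgenic cells lay apart. It includes any true difference of the lines. Among 5568 genes with at least 2 kept probe sets, the 2 brightest differed from each other by a median of 0.18 in Line 6 minus wild type and 0.21 in Line 3 minus wild type, and the 90th percentile of that gap was 0.58 and 0.62.

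Ly6a, the gene of the Sca-1 used for the sort, was not analysed here. Kit, the stem cell factor receptor gene of progenitors, read 899 in Line 6, 923 in Line 3 and 603 in wild type. Among 9 kept of 12 stem cell markers the median lay 1.21 above wild type in Line 6 and 1.44 in Line 3, with 3 of the 9 below the array median in wild type. On the deposited scale all 10 measured of 11 neutrophil markers were lower in both lines, with medians of -0.85 and -1.25, and their summed intensity was 99391 in Line 6, 76668 in Line 3 and 143926 in wild type. S100a8, a granule gene of neutrophils, still read 22487 in Line 6, 18745 in Line 3 and 25535 in wild type, near the highest value of each array although mature cells had been depleted. Among 9 kept of 10 B lineage markers the median was 1.81 in Line 6 and 0.05 in Line 3 (summed 15323 in Line 6, 7346 in Line 3 and 5027 in wild type). For 6 kept of 8 T lineage markers it was 0.35 and -0.13, and the Line 6 value fell to 0.11 once each array was centred on its median. Monocyte and macrophage markers, 10 of 10 kept, had medians of 0.87 and 0.91 with 6 of the 10 above wild type in each line, and summed to 26374 in Line 6, 26833 in Line 3 and 26682 in wild type. In that list the macrophage gene Cd5l (3.30 and 3.55) was kept only through the lines, while Cd14, the lipopolysaccharide co-receptor gene, gave -2.50 and -1.61. In RNA from a mixed fraction, fewer cells of a type and less RNA per cell cannot be told apart. The part of these markers in the values below was not tested. Both lines are set against the same wild type array.

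None of the 10 genes differed by 2-fold or more from wild type in either line, and none differed by 2-fold between the lines. Over all kept genes 5.02% passed that limit in Line 6, 8.07% in Line 3 and 2.31% between the lines, so a set of 10 genes with none past it is close to that background. At a limit of 1.5-fold, 1 of the 10 passed in Line 3 (Gfi1b) and none in Line 6 or between the lines, against 25.5% of all genes in Line 3, 16.3% in Line 6 and 9.68% between the lines. Of the 10, 6 read higher than wild type in both lines (Kdm1a, Hdac1, Hdac2, Hmg20b, Gse1 and Gfi1b) against 48.9% of all genes, and 2 read lower in both (Rcor1 and Phf21a) against 30.6%. After each array was centred on its median, 4 of the 6 (Hdac1, Hdac2, Hmg20b and Gse1) turned to below wild type in Line 6. The median difference of the 10 genes was 0.19 in Line 6 and 0.19 in Line 3, beside 0.06 and 0.12 over all genes.

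**Figure D1:**
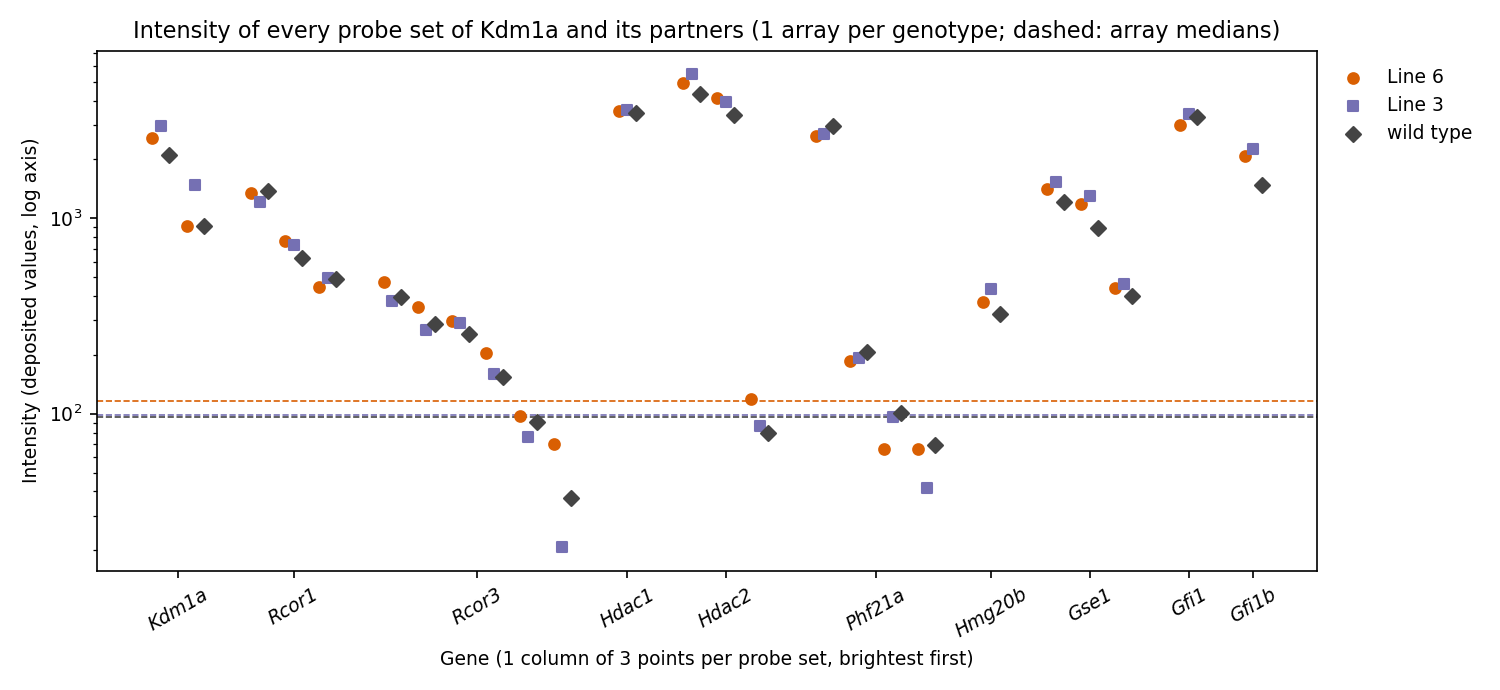
Deposited intensity (log axis) of all 25 probe sets of the 10 genes, with 1 column of 3 points per probe set for Line 6, Line 3 and wild type, and dashed lines at the 3 array medians. The 3 arrays lie close together for most probe sets, Line 3 stands above Line 6 and wild type on the dimmer Kdm1a probe set (911 in Line 6, 1482 in Line 3 and 916 in wild type), and 3 probe sets of Rcor3 and Phf21a lie below the median on all 3 arrays.

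Kdm1a is the gene the transgene is named for, so its values come first. They cannot check the labels, because it is not known whether either probe set reads RNA of the transgene. The brighter Kdm1a probe set read 2575 in Line 6, 2979 in Line 3 and 2104 in wild type. Line 6 thus lay 0.29 and Line 3 0.50 above wild type. The dimmer one read 911 in Line 6, 1482 in Line 3 and 916 in wild type, or -0.01 for Line 6 and 0.69 for Line 3. As deposited, Line 3 was therefore the highest array on both probe sets, while Line 6 stood above wild type on one and level with it on the other. After median centring Line 6 gave 0.05 on the brighter and -0.24 on the dimmer.

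The gap between the 2 Kdm1a probe sets was 0.30 in Line 6 and 0.19 in Line 3, each inside the 90th percentile of such gaps over all genes. For the brighter probe set, 24.99% of all kept genes had a higher difference in Line 6 and 19.97% in Line 3. Among 3057 genes of like brightness (within 2-fold of its mean intensity), the SD of Line 3 minus Line 6 was 0.29, which the deposited 0.21 between the lines on that probe set did not exceed. After median centring the lines were 0.41 apart on it, beside a median of 0.25 over all genes. On the dimmer one the lines were 0.69 apart. The labels do not say whether either probe set reads RNA of the transgene, so the endogenous mRNA and that of the transgene cannot be told apart. The brighter probe set carries the _s_at suffix, which Affymetrix gives where probes can match more than 1 transcript.

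Among 3056 other genes of like brightness, the 3 whose pair of differences lay nearest to that of Kdm1a were Ipo9, an importin gene (0.29 in Line 6 and 0.50 in Line 3), Paics, of purine synthesis (0.29 and 0.50), and Tor1aip2 (0.30 and 0.48). The measure was the Euclidean distance between pairs of differences over 3 arrays, and 117 of the 3056 lay within 0.1 of Kdm1a.

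The promoter of Kdm1a is shown because the gene is both the one named in the transgene and a measured member. RefSeq's build GRCm38.p6 places it at chr4:136602674-136602973 on the minus strand, from 250 bases before the start to 50 bases after it. Capitals mark AATC or its reverse complement GATT, the core that GFI1 and GFI1B bind, whichever strand holds it.

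Kdm1a: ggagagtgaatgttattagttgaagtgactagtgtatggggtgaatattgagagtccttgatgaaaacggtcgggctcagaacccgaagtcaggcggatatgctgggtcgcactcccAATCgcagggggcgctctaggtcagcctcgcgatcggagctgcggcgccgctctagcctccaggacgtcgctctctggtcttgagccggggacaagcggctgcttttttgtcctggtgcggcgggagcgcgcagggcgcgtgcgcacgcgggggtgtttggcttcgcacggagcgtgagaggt

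It holds 1 such match, which begins 133 bases before the start and overlaps a CCAAT match, beside a GC content of 61.3% with 29 CpG dinucleotides. Of 32851 promoter windows of this length in the same table, 73.1% hold at least 1 AATC match on either strand and 37.4% a CCAAT match. A match is a description of letters, not a bound site.

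Of the scaffold genes, Rcor1 encodes CoREST, which LSD1 needs to act on nucleosomes. Its brightest probe set read 1354 in Line 6, 1213 in Line 3 and 1376 in wild type, with Line 3 lowest (differences -0.02 and -0.18). The second probe set read 769 in Line 6, 727 in Line 3 and 628 in wild type, so that both lines lay above wild type (0.29 and 0.21). The third read 447 in Line 6, 493 in Line 3 and 486 in wild type (-0.12 and 0.02). The direction of Rcor1 thus depended on the probe set, over a range of 0.40 in Line 6 and 0.39 in Line 3.

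Rcor3 encodes a CoREST relative that in mouse blood cell lines was found to restrain LSD1 rather than help it. Its brightest probe set read 473 in Line 6, 378 in Line 3 and 397 in wild type. The next read 349 in Line 6, 269 in Line 3 and 286 in wild type. On these Line 6 was the highest array and Line 3 the lowest. The third read 299 in Line 6, 293 in Line 3 and 257 in wild type, and the fourth 204 in Line 6, 159 in Line 3 and 154 in wild type. On the deposited scale all 4 kept probe sets gave a positive Line 6 difference, from 0.20 to 0.37, while Line 3 ran from -0.08 to 0.18. After median centring the Line 6 values ran from -0.03 to 0.13, and the third probe set was the one below 0. Line 3 minus Line 6 was negative on all 4 as deposited, from -0.36 to -0.03, but on the third it was 0.06 after quantile normalization, 0.17 after centring and 0.02 after cyclic loess. The deposited values stayed within the SD of 0.39 between the lines among genes of like brightness. The remaining 2 Rcor3 probe sets were below the median on every array, and the dimmest read 70.3 in Line 6, 20.8 in Line 3 and 37.2 in wild type.

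Of the deacetylase genes, Hdac1 stayed close to wild type and Hdac2 read above it in both lines as deposited. Hdac1, on its single probe set, read 3552 in Line 6, 3592 in Line 3 and 3440 in wild type, which puts the 3 arrays within 0.06 of each other. The gene table also lists a pseudogene, Hdac1-ps, and whether the probe set separates it from Hdac1 was not tested. Hdac2 read 4908 in Line 6, 5447 in Line 3 and 4297 in wild type on its main probe set, and 4106 in Line 6, 3942 in Line 3 and 3385 in wild type on the second. Both lines stood above wild type on both, by 0.19 (main) and 0.28 (second) in Line 6 against 0.34 and 0.22 in Line 3, and the order of the lines changed between the probe sets. The dimmest Hdac2 probe set, kept only through Line 6, read 119 in Line 6, 86.1 in Line 3 and 79.8 in wild type (0.50 and 0.09).

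Among the subunits that read or touch chromatin, Phf21a was lower in the lines and the others were higher, with no value near 2-fold. Phf21a encodes BHC80, a PHD finger protein that binds histone H3 unmethylated at lysine 4. Its main probe set read 2625 in Line 6, 2700 in Line 3 and 2963 in wild type (-0.17 and -0.13). The second read 186 in Line 6, 193 in Line 3 and 207 in wild type (-0.14 and -0.09). Another, kept only through wild type, gave -0.51 and -0.05, and the fourth, below the median on every array, gave -0.06 and -0.56. Wild type was the highest array on all 4, although 24.9% of all genes had a lower difference than its main probe set in Line 6 and 28.8% in Line 3.

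Hmg20b encodes BRAF35, an HMG box subunit of the complex. On its single probe set it read 371 in Line 6, 434 in Line 3 and 323 in wild type, differences of 0.19 and 0.41. Gse1 encodes a coiled coil protein found with LSD1 and CoREST. Its probe sets read 1417, 1187 and 441 in Line 6, 1530, 1292 and 458 in Line 3, and 1216, 890 and 400 in wild type. All 3 ran in the order Line 3, Line 6 and wild type, with differences of 0.14 to 0.41 in Line 6 and 0.19 to 0.53 in Line 3. Centred on array medians, the main probe set of Gse1 gave -0.02 in Line 6 and that of Hmg20b gave -0.05.

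**Figure D2:**
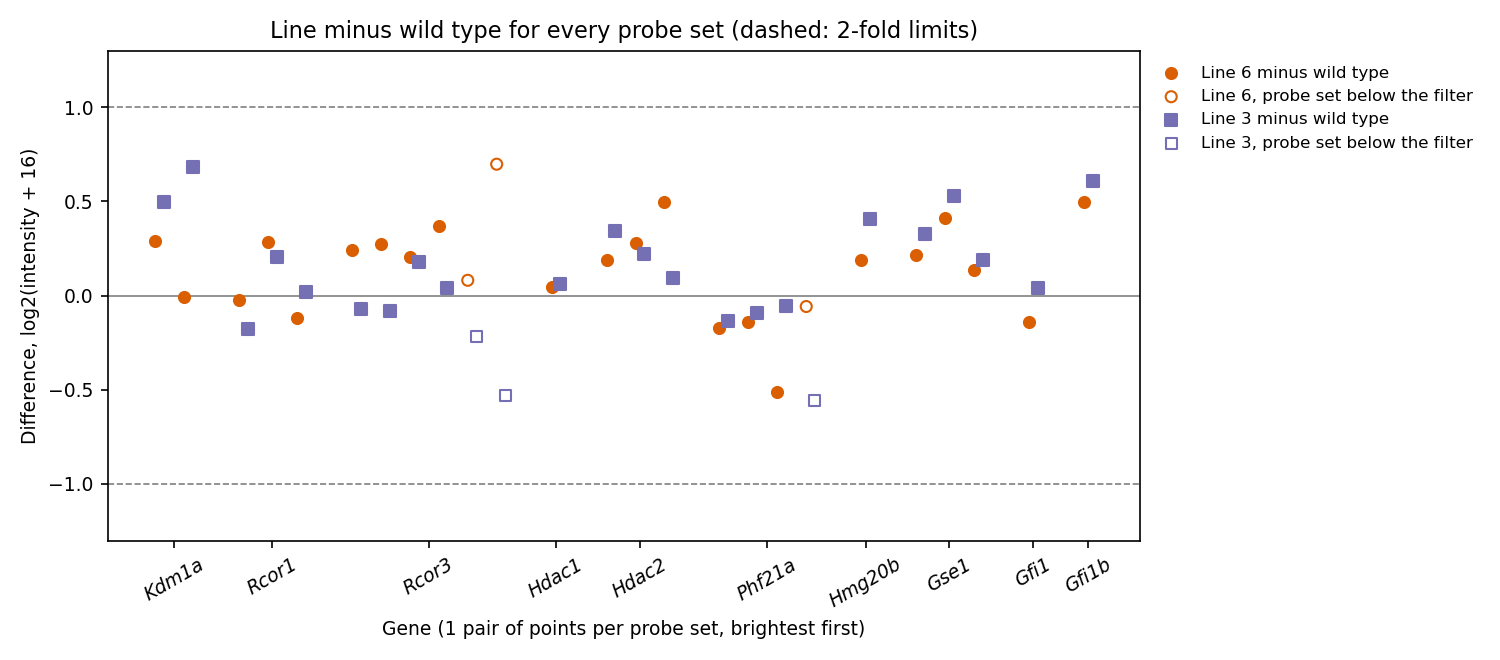
Line minus wild type on the log2(intensity + 16) scale for each of the 25 probe sets, with Line 6 as circles and Line 3 as squares, open where a probe set lay below the median on every array, and dashed lines at 2-fold. The probe sets of Gse1 and the kept ones of Hdac2 lie above 0 and those of Phf21a below 0 in both lines on the deposited scale, those of Rcor1 fall on both sides, and no point reaches a 2-fold limit.

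Of the recruiting factors, Gfi1b gave the largest differences among the brightest probe sets of the 10 genes, although the dimmer Kdm1a probe set exceeded it in Line 3 (0.69 against 0.61). Gfi1b is required for erythroid and megakaryocytic development, and it read 2086 in Line 6, 2252 in Line 3 and 1473 in wild type on its single probe set. Both lines lay above wild type, by 0.50 (1.41-fold) and 0.61 (1.52-fold), and within 0.11 of each other. The SD among 3621 genes of like brightness was 0.38 for Line 6 minus wild type and 0.52 for Line 3 minus wild type, and 12.6% and 14.1% of all kept genes had a higher difference. The value lay between 0.26 and 0.52 in Line 6 and between 0.56 and 0.62 in Line 3 over the alternatives, so its sign held in all of them. Gfi1, which neutrophil formation requires, read 3004 in Line 6, 3410 in Line 3 and 3310 in wild type, differences of -0.14 and 0.04 on opposite sides of wild type. After median centring Gfi1 was -0.38 in Line 6 and 0.01 in Line 3.

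Markers of the lineages in which these factors act were read on the same arrays. Among 7 kept of 10 erythroid markers the median was 0.14 in Line 6 and 0.09 in Line 3, and their list summed to 31590 in Line 6, 25085 in Line 3 and 30067 in wild type. Gata1, the erythroid and megakaryocytic factor, read 1416 in Line 6, 1187 in Line 3 and 773 in wild type. Alas2, of haem synthesis, read 2198 in Line 6, 928 in Line 3 and 2782 in wild type (-0.34 and -1.57), and Slc4a1, the band 3 anion exchanger gene, gave -0.05 and -0.62, so the list ran in both directions. Among 6 kept of 10 megakaryocyte markers the median was 0.85 in Line 6 and 0.21 in Line 3 (summed 3281 in Line 6, 2635 in Line 3 and 1874 in wild type), with Pf4, platelet factor 4, at 1.20 and 0.55. Of these 6, Gp5 was kept only through Line 6, at 126 in Line 6, 63.8 in Line 3 and 54.5 in wild type. Mast cell and basophil markers, 7 kept of 10, had medians of 0.34 and 1.32 (summed 15923 in Line 6, 27192 in Line 3 and 15535 in wild type). Of the markers below the filter, Gp6 read 1.64 in Line 6, 9.49 in Line 3 and 1.65 in wild type and Hba-a1 read 8.35 in Line 6, 17.8 in Line 3 and 5.83 in wild type. No marker was at 0. Granulocyte-monocyte progenitor markers, all 9 kept, had medians of 0.01 and 0.19 (summed 63048 in Line 6, 72180 in Line 3 and 66507 in wild type). These medians are as deposited. After median centring those of Line 6 were -0.10 for the erythroid and -0.23 for the granulocyte-monocyte progenitor list. The megakaryocyte and the mast cell and basophil lists stayed above wild type in Line 6 (0.62 and 0.11). The part of these markers in the values of Gfi1b and Gfi1 was not tested.

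GFI1 and GFI1B are known to repress their own and each other's genes, so the promoters of both are shown, with AATC or GATT in capitals as above. The Gfi1b window lies at chr2:28621933-28622232 and the first of 2 Gfi1 windows at chr5:107725756-107726055, both on the minus strand of GRCm38.p6 (RefSeq).

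Gfi1b: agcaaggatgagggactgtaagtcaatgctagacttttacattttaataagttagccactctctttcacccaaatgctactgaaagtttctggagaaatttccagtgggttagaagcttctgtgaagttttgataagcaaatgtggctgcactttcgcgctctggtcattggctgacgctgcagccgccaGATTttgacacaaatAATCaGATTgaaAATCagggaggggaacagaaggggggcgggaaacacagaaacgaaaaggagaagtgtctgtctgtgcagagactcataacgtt

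Gfi1: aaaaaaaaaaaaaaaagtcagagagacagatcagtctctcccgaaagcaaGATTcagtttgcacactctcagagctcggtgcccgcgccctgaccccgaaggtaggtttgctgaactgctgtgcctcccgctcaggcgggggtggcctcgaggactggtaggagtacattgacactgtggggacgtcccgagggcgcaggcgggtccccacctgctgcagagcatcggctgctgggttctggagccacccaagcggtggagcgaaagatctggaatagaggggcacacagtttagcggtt

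The Gfi1b window holds 4 AATC matches, which begin 60, 45, 40 and 33 bases before the start, and 10.1% of all windows hold 4 or more. It also holds a GATAA match 119 bases before the start, present on either strand in 25.4% of all windows, and a CCAAT match at 83 bases that overlaps none of the others. Its GC content was 44.3% against a median of 52.7% over all windows. The Gfi1 window holds 1 match, 200 bases before the start, and the second Gfi1 window holds none. Windows for 9 of the 10 genes were in the table, 15 in all, and the second largest count among them was 2, in Hmg20b and Gse1. Hdac1 was not matched. Expression on 3 arrays says nothing of binding at these letters.

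**Figure D3:**
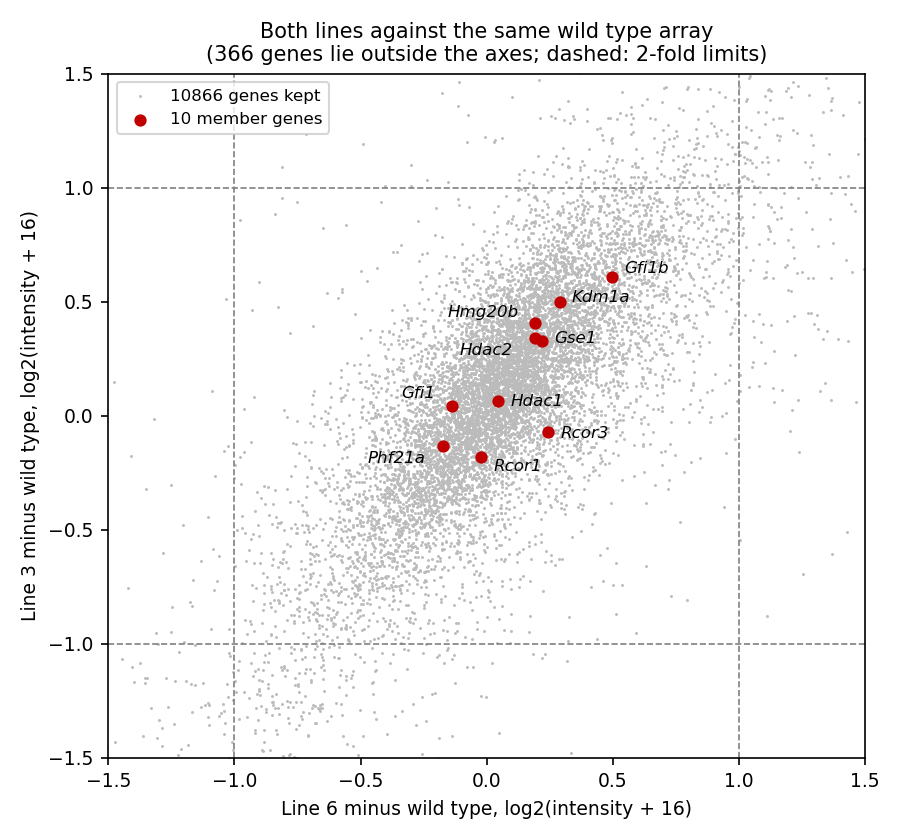
Line 6 minus wild type (horizontal) against Line 3 minus wild type (vertical) on the log2(intensity + 16) scale, with 10866 kept genes in grey, the 10 member genes in red and dashed lines at 2-fold, while 366 genes lie outside the axes. Both axes share the wild type array, so the diagonal spread of the grey points is partly built in, and the red points lie inside the square of the 2-fold limits with Gfi1b and Kdm1a nearest its upper right corner.

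The wider machinery around LSD1 was read from 6 lists drawn up with earlier results of these arrays known. Of their 47 kept genes, 1 was at least 2-fold higher than wild type in each line, the same gene in both, and none was 2-fold lower. Over all kept genes 5.02% passed that limit in Line 6 and 8.07% in Line 3, in either direction, so the count is not above that background. The medians of the 47 were 0.06 in Line 6 and 0.10 in Line 3, beside 0.06 and 0.12 over all genes. The gene past the limit was Chd3, a chromatin remodelling ATPase of the NuRD complex, which also contains HDAC1 and HDAC2 and can contain LSD1. Chd3 read 482 in Line 6, 485 in Line 3 and 196 in wild type on its single probe set, differences of 1.23 and 1.24. In Line 6 it fell to 0.99 after median centring, just inside the limit. Of the other 10 NuRD genes none reached 2-fold, and Mbd3 was the next, at 0.26 and 0.73.

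Of the remaining CoREST genes, 2 of 7 kept ones lay above 0 in each line, and the medians were -0.10 and -0.06. Zfp516, a zinc finger gene of the complex, read 2232 in Line 6, 1779 in Line 3 and 3320 in wild type (-0.57 and -0.89), and its second probe set gave -0.67 and -1.20. Ctbp2, a corepressor gene, read 1116 in Line 6, 861 in Line 3 and 1394 in wild type (-0.32 and -0.68), although its second probe set gave -0.10 and -0.04. Zfp217 gave -0.10 and -0.36, and Zmym3 read 687 in Line 6, 938 in Line 3 and 940 in wild type. The other 3 Zmym3 probe sets did not share one direction, and the brightest of them lay above wild type in each line (0.43 in Line 6 and 0.39 in Line 3). Rcor2 lay below the filter, at 80.2 in Line 6, 44.4 in Line 3 and 57.9 in wild type.

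Kdm1b, the paralogue of Kdm1a, read 272 in Line 6, 213 in Line 3 and 230 in wild type, while the gene of its cofactor, Glyr1, read 919 in Line 6, 905 in Line 3 and 1306 in wild type, lower in both lines by -0.50 and -0.52. Other class I deacetylases and Sin3 or NCoR genes, 7 kept of 10, had medians of -0.20 and 0.10, with Hdac8 at 0.60 and 0.60, on a probe set that lay below the median in wild type. Other factors reported to bind LSD1, 9 kept of 15, had medians of 0.14 and 0.32. They included Bcl11b, a T lineage factor (0.73 and 0.45), Cbfa2t3, the ETO2 corepressor that acts with Gfi1b in erythroid cells (0.54 and 0.50), and Bcl11a, a repressor of fetal globin genes (0.38 and 0.62). The second Bcl11b probe set gave 1.06 and 0.56. Those of Bcl11a ran from -0.17 to 1.03 in Line 6 and from -0.02 to 0.87 in Line 3. The 3 probe sets of Cbfa2t3 that reached the median on all 3 arrays gave 0.54 to 0.71 in Line 6 and 0.50 to 0.78 in Line 3, and another was kept only through the lines. Enzymes that place the H3K4 mark and their shared subunits, all 11 kept, had medians of 0.20 and 0.22, with Kmt2a (MLL1) at 0.59 and 0.66, Men1, the menin gene, at 0.20 and 0.66, and Kmt2c at 0.50 and 0.32. The second Kmt2a probe set gave 0.50 and 0.14, and those of Kmt2c ran from 0.10 to 0.62 in Line 3. The medians of the last 2 lists lay below 0 in Line 6 after median centring, at -0.10 and -0.04.

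Genes reported as GFI1 or GFI1B targets were read from a list also drawn up with earlier results known. Of 15 kept of 17, 3 were at least 2-fold higher and 3 lower in Line 6, and 5 higher and 1 lower in Line 3, beside the 5.02% and 8.07% of all genes past that limit in either direction. Among them 3 exceeded wild type by 2-fold in each line and 1 was as far below it in each. The single-line shares are no background for these 2 counts, because both lines are set against the same wild type array. No matching share is given here, so whether the counts exceed their background was not tested. Under quantile normalization, cyclic loess or median centring the higher count fell to 1 and the lower stayed at 1. The medians of the 15 were -0.24 and 0.04 as deposited. Hoxa9, a homeobox gene of stem cells, read 963 in Line 6, 1176 in Line 3 and 356 in wild type (1.40 and 1.68). Its cofactor gene Meis1 read 344 in Line 6, 365 in Line 3 and 161 in wild type (1.03 and 1.11). Tgfbr3, a TGF-beta co-receptor gene, read 319 in Line 6, 353 in Line 3 and 151 in wild type (1.01 and 1.14), while its second probe set gave 0.67 and 0.06. Quantile normalization, cyclic loess and median centring each brought Meis1 and Tgfbr3 inside 2-fold in Line 6. Socs3, an inhibitor of cytokine signalling, read 180 in Line 6, 149 in Line 3 and 627 in wild type (-1.72 and -1.96), and its second probe set gave -1.57 and -1.69, while another was kept only through wild type.

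The other listed targets past 2-fold, picked out after their values were seen, passed it in 1 line each. Egr1 and Egr2, immediate early factors, had differences of -1.48 and -1.56 in Line 6, against 0.15 and -0.25 for these genes in Line 3. Csf1 and Gata2 had differences of -0.15 and 0.62 in Line 6, against 1.03 and 1.05 for these genes in Line 3, and the same scalings each brought Csf1 inside 2-fold in Line 3. Hoxa9, Meis1 and Gata2 are also on the stem cell marker list, whose medians of 1.21 and 1.44 are given above. Of the 9 genes behind those medians, 3 (Procr, Mecom and Esam) lay below the array median in wild type. These 3 were counted because a transgenic array read them above its own median, so the filter favours high differences there. The Line 6 median is the value of Esam itself (1.21). The part of cell makeup in the values of the listed targets was not tested.

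**Figure D4:**
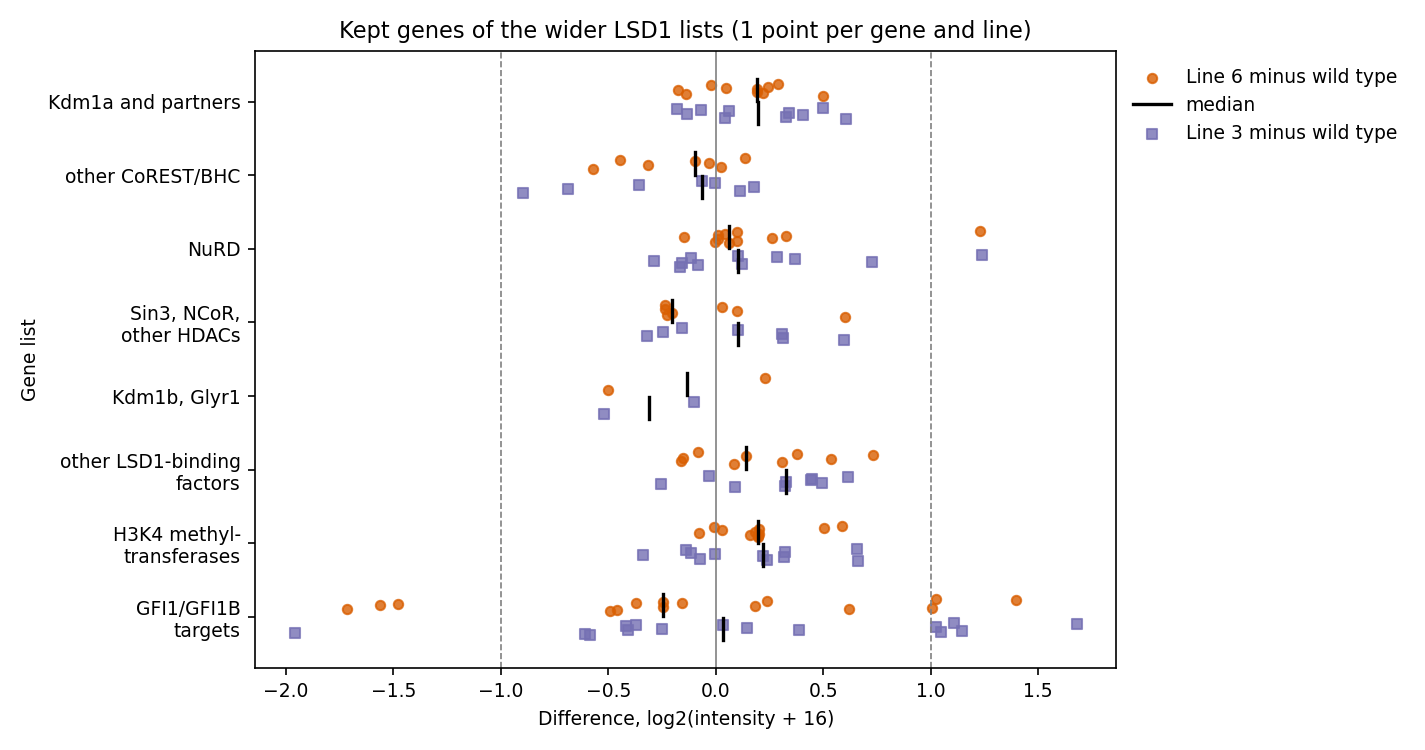
Line 6 minus wild type (circles) and Line 3 minus wild type (squares) on the log2(intensity + 16) scale for the 10 member genes and the kept genes of 7 wider lists, with black bars at the list medians and dashed lines at 2-fold. Outside the target list, Chd3 alone lies past a 2-fold limit, at 1.23 and 1.24, whereas the GFI1 and GFI1B targets run from -1.72 to 1.40 in Line 6 and from -1.96 to 1.68 in Line 3.

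Between the lines, the 10 genes differed by -0.31 (Rcor3) to 0.22 (Hmg20b) with a median of 0.11, beside 0.05 over all genes, and 8 of the 10 read higher in Line 3. As deposited, all 10 lay within the SD over all genes (0.38), and within the SD among genes of like brightness. After median centring 9 of the 10 read higher in Line 3, with a median of 0.31 beside 0.25 over all genes. At the level of probe sets, 1 of the 22 kept ones differed by more than 1.5-fold between the lines, the dimmer of Kdm1a, where 10.8% of all kept probe sets did.

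Centring on array medians lowered every Line 6 difference by about 0.24 on this scale and every Line 3 difference by about 0.04. The median of the 10 genes in Line 6 was then -0.05, beside -0.17 over all genes, so its distance from all genes stayed at 0.13. Quantile normalization gave Kdm1a 0.33 in Line 6 and 0.52 in Line 3, cyclic loess 0.29 and 0.46, and centring 0.05 and 0.46.

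**Figure D5:**
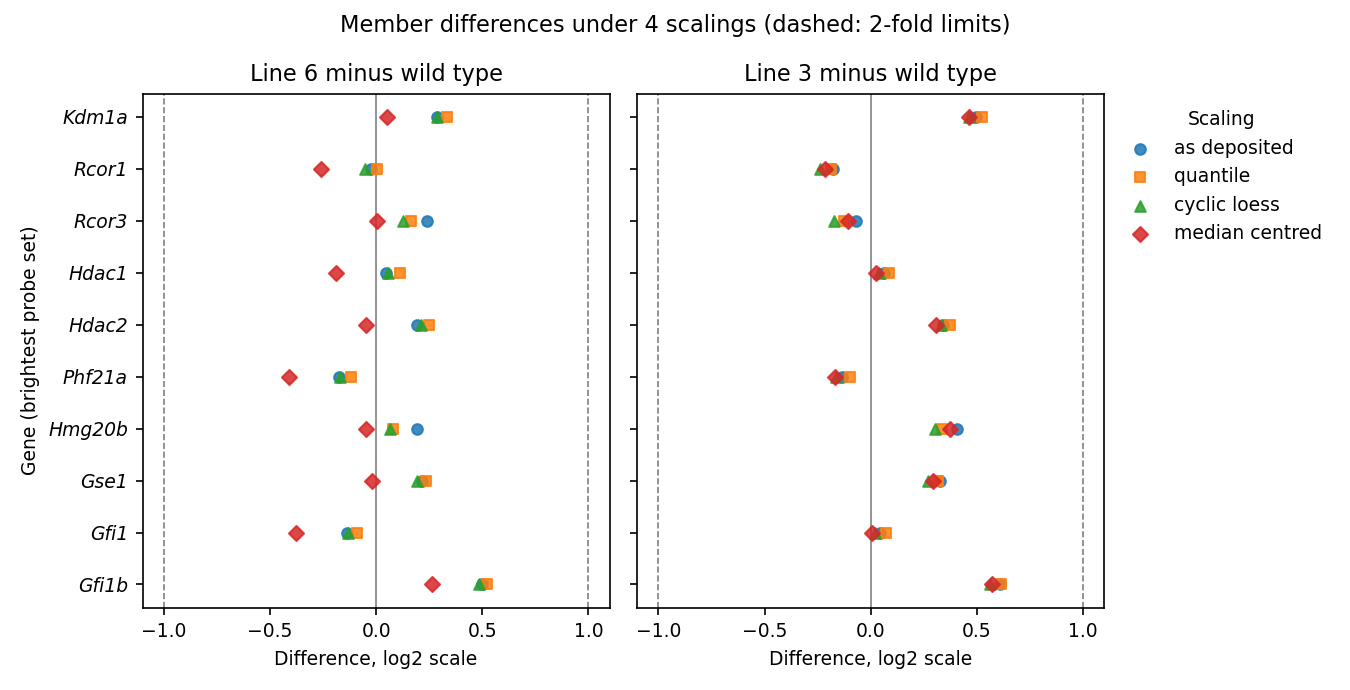
Difference from wild type (log2 scale) of the brightest probe set of each of the 10 genes in Line 6 (left) and Line 3 (right), as deposited and after quantile normalization, cyclic loess and median centring, with dashed lines at 2-fold. Median centring shifts the Line 6 points left, which puts Hdac1, Hdac2, Hmg20b and Gse1 below 0, while under it the points in Line 3 move by about 0.04, and Gfi1b stays the highest gene in both lines under all 4 scalings.

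When the lines were taken as 2 samples of 1 transgenic group in a limma fit over all 10866 genes, no member passed an adjusted p of 0.05. Gfi1b came nearest, with a mean difference of 0.55 ± 0.23 (SE) and a limma adjusted p of 0.31, and Kdm1a had 0.39 ± 0.24 (SE) and a limma adjusted p of 0.47. Of all genes 6 passed, and 0 of the 10 members had an unadjusted p under 0.05. The fit treats different lines as replicates and has 1 wild type array, whose own spread it does not see.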

How the data were processed

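Gene expression was measured on 1 Affymetrix array per genotype. Per the labels' protocols, total RNA was taken up in Trizol, amplified by a whole transcriptome kit (Ovation Pico) and biotinylated. The deposited values are intensities per probe set on a linear scale. How probes were summarised was not given in the sources used here. A trimmed mean (2% off each end) of 497 on all 3 arrays shows that the authors had scaled them. No detection calls were used, and a dim intensity cannot be told from background.

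Of 45037 probe sets, the platform annotation gave 1 gene symbol for 34945 and several for 932, while 9160 had no entry. By Entrez identifier, 34741 matched the gene table (GRCm38.p6).

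The transformation was log2(intensity + 16). With 1 array per genotype the main values have no test, and genes were counted past 2-fold. The members, the 7 pathway lists and the 9 marker lists were chosen with earlier results of these data known. Named genes are the members, the 3 genes most like Kdm1a, and up to 4 per pathway list with the largest mean difference. Also named are Egr1, Egr2, Csf1 and Gata2, picked out after their values were seen, Rcor2, which lay below the filter, and example genes of the marker lists.

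Alternatives were quantile normalization, median centring, cyclic loess, pseudocounts of 1 and 64, leaving the filter out or setting it at percentile 75, the median of a gene's probe sets, plain _at probe sets, limits of 1.5-fold and 3-fold, and limma with the lines pooled. The counting procedure was tested on simulated data. Promoters came from RefSeq.

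Software was limma 3.58.1 in R 4.3.3, and pandas 2.3.3 and numpy 2.4.6 in Python 3.11.15.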

Additional observations from a re-analysis of the deposited data

Results flagged for a closer look

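In 5 of the 22 kept probe sets of the 10 genes, Line 6 and Line 3 lay on opposite sides of wild type. Over all kept genes, 48.9% lay above wild type in both lines and 30.6% below it in both. The share on opposite sides is what remains, and 5 of 22 is close to it, although that share is of genes and not of probe sets. The 5 are as deposited and depend on the scaling. After median centring Hdac1, Hmg20b and the main probe sets of Hdac2 and Gse1 also lay on opposite sides. The third Rcor1 probe set then lay below wild type in both lines (-0.35 in Line 6 and -0.02 in Line 3). None of the differences on the 5 probe sets was tested, because each line had 1 array. The dimmer Kdm1a probe set was 0.69 higher in Line 3 than in Line 6. The third Rcor1 probe set was 0.14 higher in Line 3. On the brightest Rcor3 probe set Line 3 minus Line 6 was -0.31, and on the next -0.36. Gfi1 was 0.18 higher in Line 3. Except for Kdm1a, each value lay within the SD of Line 3 minus Line 6 over all genes (0.38).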

How the results depend on the processing

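Over 11 alternatives and 3 comparisons, 317 of 321 recomputed values moved by less than the SD between the lines (0.38), or kept a count within 1.5 times, and no gene of the 10 passed 2-fold under any of them. The exceptions were Kdm1a between the lines with plain _at probe sets (0.69), Rcor1 in Line 3 (0.21 both from plain _at probe sets and from the median over its probe sets), and the count in Line 3 at 1.5-fold (1). The SD of 0.38 is larger than most differences of the 10 genes, so even a change of sign could count as within it. Changes of the filter left the values of the genes they kept unaltered. The 317 are therefore no measure of stability. The sign changed under at least 1 alternative in 11 pairs of gene and comparison. Kdm1a in Line 6 was -0.01 with plain _at probe sets. The sign also changed for Rcor1 in Line 6 with quantile normalization (0.0037), plain _at probe sets or the median over probe sets (0.29 in both), and for Rcor3 in Line 3 when its probe sets were summarised by their median (0.05). Between the lines it changed for Rcor1 once centred (0.04), for Hdac1 with quantile normalization and cyclic loess (-0.02 in both) and for Hdac2 with the median over its probe sets (-0.06). Hmg20b had no plain _at probe set, and Rcor3 and Hmg20b lay below the filter at percentile 75. The genes past 2-fold in Line 6 numbered 546, against 320 with a pseudocount of 64, 1289 without a filter, 218 with the filter at percentile 75, 1774 at 1.5-fold and 134 at 3-fold. In Line 3 they numbered 877, against 575, 1594, 415, 2768 and 254, and between the lines 251, against 120, 852, 93, 1052 and 54. Of those past 2-fold in Line 6, 51.6% were higher as deposited, against 34.0% with quantile normalization, 32.5% with cyclic loess and 23.7% once centred, and between the lines 31.5%, 43.0%, 42.1% and 58.3%. The causes were not tested.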
